A study of Homo sapiens with 18 samples.

Results

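Transcript levels of 10 genes that set or mark breast cell lineages were followed through the MCF10 progression model. The set held GATA3, FOXA1, the estrogen receptor gene ESR1, the ETS family genes ELF3, ELF5 and EHF, the Krüppel-like factors KLF4 and KLF5, and the AP-2 genes TFAP2A and TFAP2C. They were taken by symbol from a table of normalized counts that gave values for 35933 genes in 18 libraries, and all 10 were found. ESR1 was the only hormone receptor among them, so the other nuclear and hormone receptors were read from a list of their own.

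MCF10A is a spontaneously immortalized, non-tumorigenic human breast epithelial line. MCF10AT1 cells are MCF10A cells that carry a mutated HRas, and repeated growth of MCF10AT1 as xenografts in mice gave MCF10CA1h. Each line was present as a negative CRISPR line and as a line labelled Mettl3 knockdown, made with a guide to the first exon of METTL3, the main writer of the m6A mark on mRNA. All 6 groups had been transfected with a CRISPR/Cas9 construct, sorted and cloned. They grew in the same medium with horse serum, insulin, hydrocortisone, cholera toxin and epidermal growth factor. The sample titles name the negative CRISPR libraries WT. The 3 libraries of a group, named a, b and c, came from a single CRISPR line. The p-values below therefore measure the spread between these libraries and not between independent clones.

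In the mammary gland GATA3 and FOXA1 are known to specify and maintain luminal cells, and FOXA1 opens chromatin for the estrogen receptor. ELF5 drives the alveolar, milk-producing fate of luminal progenitors, while its relatives ELF3 and EHF are factors of epithelia in general. KLF4, KLF5, TFAP2A and TFAP2C are active in basal as well as luminal epithelial cells, and TFAP2C is also known to regulate ESR1.

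METTL3 itself was read first. Its normalized counts in MCF10A were 752, 686 and 459 in the negative CRISPR libraries and 939, 981 and 509.8 in those labelled knockdown, so its RNA was not lower there. In MCF10AT1 they were 968, 1016 and 805 against 816, 752 and 902, and the ranges overlapped. In MCF10CA1h they were 1022, 1102 and 1280 against 825, 745 and 843, and the groups did not overlap. The log2 fold changes were 0.33 (adjusted p = 0.618), -0.17 (adjusted p = 0.707) and -0.49 (adjusted p = 0.0234) in limma, and the exact two-sided permutation test gave p = 0.5, 0.3 and 0.1, and no smaller p than 0.1 can be reached with 3 libraries in each group. Exons of TOX4 on the other strand share 388 bases with those of METTL3, at 937 to 2103 normalized counts of TOX4. The RNA level is no check of a guide that cuts within an exon, and protein is not in these files. Because the RNA was not called lower in 2 of 3 lines, the libraries are called labelled knockdown throughout.

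The library sums of normalized counts ranged from 21347352 to 31681834, with 20121 to 26410 genes above 0. The MCF10AT1 negative CRISPR library b had the highest sum and the fewest genes. Its median absolute log2 difference from library c of its group was 0.892, the largest between any libraries of a group. Library a differed by 0.517 from b and by 0.568 from c, so the difference does not single out b. Between the negative CRISPR lines MCF10AT1 and MCF10A 4391 genes were called, beside 8142 without library c and 3113 without library b. Without library b ELF3 (-7.38, adjusted p = 0.000327), FOXA1 (-2.31, adjusted p = 0.0186) and TFAP2C (-1.52, adjusted p = 0.0218) were called lower in the MCF10AT1 line labelled knockdown, as they were with it. Other calls that rest on library b are given below. The depth behind a gene's value is unknown, because most low values above 0 were not whole multiples of a read. The most frequent low value was 1.77 in the MCF10AT1 negative CRISPR library b and 0.81 to 1.23 in the other libraries. Whether library b was sequenced less deeply was not tested. Markers of basal epithelium were present in every group, with all 8 of 8 reaching a normalized count of 10 in at least 1 library. Blood markers were near 0 throughout, with summed values of at most 6 for the 3 of 5 in the table. In these bulk libraries, fewer cells that make a transcript and less of it per cell cannot be told apart.

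Estrogen receptor RNA was at or near the bottom of the scale. In MCF10A the 3 negative CRISPR libraries held 26.6, 8.07 and 2.43 normalized counts of ESR1, and the labelled knockdown libraries 19.2, 20.5 and 22.6. The ranges overlapped, and the log2 fold change of 1.19 (SE 0.72) had an adjusted p of 0.434. In MCF10AT1 the values were 0, 0 and 9.65 against 0.99, 0 and 0, and in MCF10CA1h 0.91, 1.54 and 0 against 0.87, 0 and 3.37. No library of those 4 groups reached 10, so ESR1 counts as absent there, and no fold change is given. Per kilobase of the canonical transcript, ESR1 stood at 1.95 normalized counts in the MCF10A negative CRISPR line, where GATA3 stood at 95.7.

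ELF5, the alveolar factor, was absent from the whole series. The highest of its 18 values was 2.23, in a MCF10CA1h library labelled knockdown, and 13 libraries were listed at 0. EHF, its neighbour, starts 95.9 kb away on chromosome 11 (ELF5 at chr11:34478791-34525193, minus strand; EHF at chr11:34621093-34663288, plus strand; hg38). That paralog was transcribed in all groups, with mean normalized counts between 325 and 1531.

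**Figure D1:**
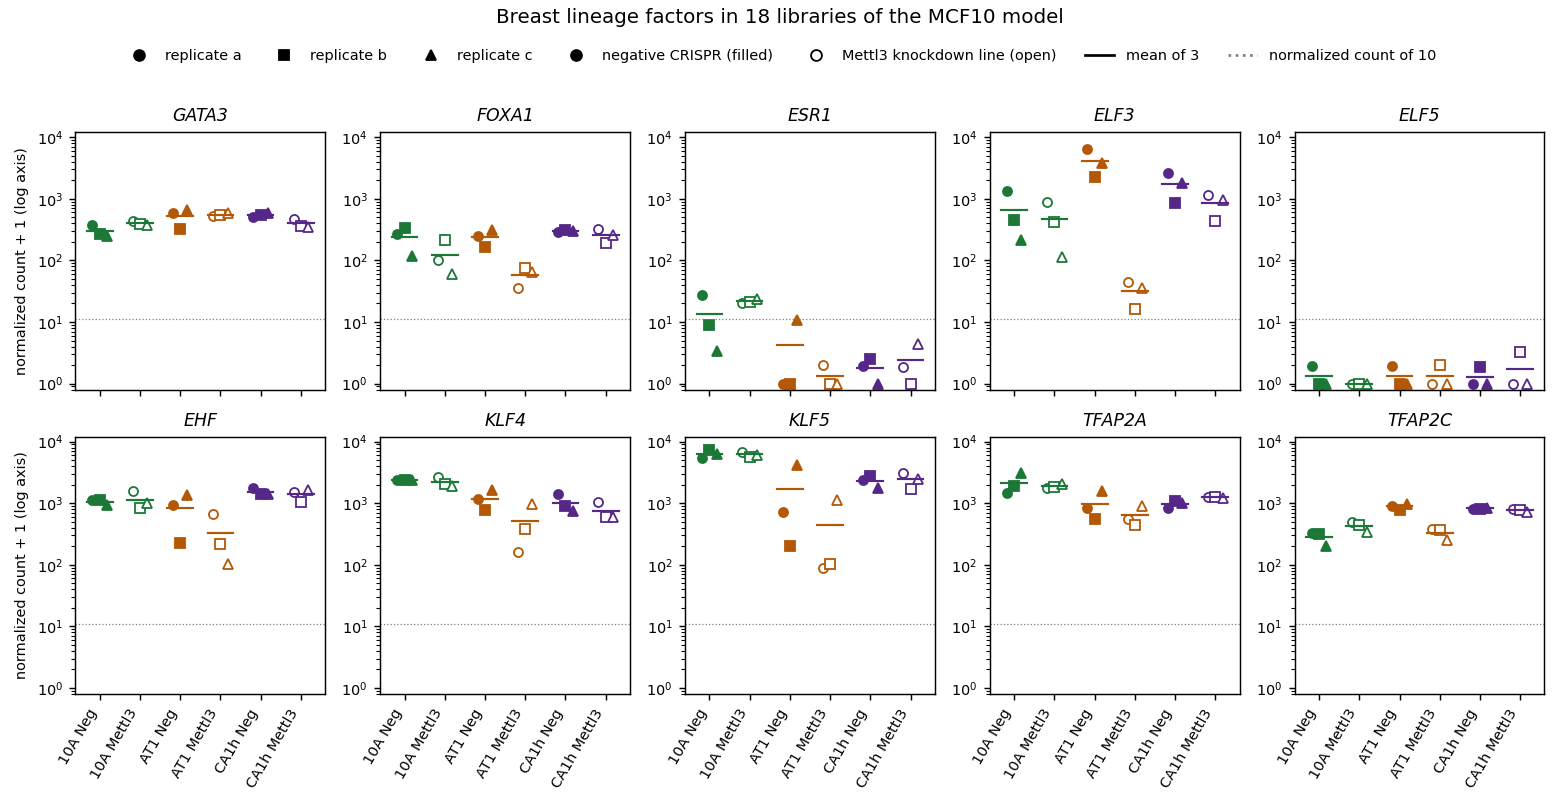
Normalized count plus 1 of each of the 10 genes (log axis) in the 6 groups, 1 point per library with the letter as its shape; bars are means of 3 and the dotted line marks a normalized count of 10. ELF3 in MCF10AT1 drops from between 2260 and 6412 in the negative CRISPR libraries to between 15.4 and 44.1 in those labelled knockdown, while ELF5 stays at or under 2.23 in all 18.

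ELF3 made the largest change of the set. It lies on chromosome 1 (chr1:202007945-202017183, plus strand, hg38) and codes for an epithelium-restricted ETS factor. In MCF10AT1 the negative CRISPR libraries held 6412, 2260 and 3811 normalized counts and those labelled knockdown 44.1, 15.4 and 34.8. Every labelled knockdown library was thus far under every negative CRISPR library, and the mean of 31.4 ± 14.7 (SD, n = 3) was 0.755% of the mean of 4161 ± 2098 (SD, n = 3). The log2 fold change was -7.00 (SE 0.51, 95% interval -8.17 to -5.83, adjusted p = 0.000112). The same comparison within each letter gave -7.15, -7.11 and -6.73, a much narrower spread than that of the levels.

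In the other lines ELF3 changed less. MCF10A held 1337, 448 and 212 normalized counts in the negative CRISPR libraries and 896, 412 and 112 in those labelled knockdown, so the groups overlapped (log2 fold change -0.54, SE 0.83, adjusted p = 0.788). MCF10CA1h held 2580, 838 and 1800 against 1145, 427 and 938, which also overlapped (log2 fold change -1.03, SE 0.42, adjusted p = 0.139). Without the negative CRISPR library b of MCF10CA1h the adjusted p was 0.0304. The ELF3 effect of MCF10AT1 differed from that of MCF10A by -6.46 (SE 1.04, adjusted p = 0.000276), and that of MCF10CA1h from that of MCF10AT1 by 5.97 (SE 1.04, adjusted p = 0.000647), both on the log2 scale.

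Other transcripts share part of the ELF3 locus. Exons of ELF3-AS1 on the other strand cover 664 of the 7186 exon bases of ELF3, and whether the counting used strand is not given in the sources used here. ELF3-AS1 held 274, 130 and 190 normalized counts in the MCF10AT1 negative CRISPR libraries and 68.5, 21.7 and 25.8 in those labelled knockdown, so it was also lower in every one. The part of antisense reads in the ELF3 value was not tested. In the labelled knockdown libraries a and b of MCF10AT1 its value exceeded that of ELF3.

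FOXA1, the pioneer factor of luminal cells, followed ELF3 at a lower level. It lies at chr14:37589552-37596059 on the minus strand (hg38). MCF10AT1 held 249, 165 and 307 normalized counts in the negative CRISPR libraries and 34.9, 75.3 and 63.6 in those labelled knockdown, with no overlap. The mean fell from 240.3 ± 71.7 to 57.9 ± 20.8 (SD, n = 3), and the log2 fold change was -2.06 (SE 0.45, adjusted p = 0.0195). Leaving out the negative CRISPR library a, the negative CRISPR library c or the labelled knockdown library a raised the adjusted p to 0.0919, 0.0545 or 0.0601. In MCF10A the values were 266, 332 and 117 against 98.7, 210.2 and 59.8 and overlapped, although each letter was lower (log2 fold change -1.01, SE 0.53, adjusted p = 0.358). In MCF10CA1h they were 285, 307 and 294 against 319, 191 and 258 (log2 fold change -0.23, SE 0.19, adjusted p = 0.467). The FOXA1 effects of MCF10AT1 and MCF10A differed by -1.05 (SE 0.64, adjusted p = 0.266), so a difference between these lines was not shown, and those of MCF10CA1h and MCF10AT1 by 1.82 (SE 0.64, adjusted p = 0.0571, and 0.0127 with the letter as a block).

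The sequences before the RefSeq start sites of ELF3 and FOXA1 (build GRCh38.p14) are shown because, of the 9 members with an entry, only these held CACCTG (TFAP2C had none), an E-box that the SNAI and ZEB repressors are known to bind. The string was chosen with the values known and read on both strands in the 250 bases before each of 22 start sites. It stands in capitals, within 30 bases of the gene's own strand, and begins 120 bases before the ELF3 start and 122 bases before that of FOXA1.
ELF3, chr1:202010455-202010484, plus strand: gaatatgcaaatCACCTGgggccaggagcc
FOXA1, chr14:37595354-37595383, minus strand: gcggccgccttgCAGGTGcacctcgggctt
The string was thus in 2 of the 22 member windows, and it was in 17.5% of the 35116 windows of this length in the table. The string GCCNNNGGC, read by AP-2 factors, was in 4 of the 22 member windows and in 19.8% of all, and CCACCC, read by Krüppel-like factors, in 9 and in 31.3%. GGAAG, the core read by ETS factors such as ELF3, was in 14 and in 65.1%. These strings can share bases with one another, and a match is not a bound site. The gene for the SNAI factor SNAI2 was read among the basal factors below.

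TFAP2C was the remaining member that passed the test in MCF10AT1. It lies at chr20:56629306-56639283 on the plus strand (hg38). The negative CRISPR libraries held 892, 770 and 984 normalized counts and those labelled knockdown 377, 369 and 248, again with no overlap. The means were 882 ± 107 and 331 ± 72.4 (SD, n = 3), a log2 fold change of -1.43 (SE 0.30, adjusted p = 0.0158). Leaving out the negative CRISPR library a or the labelled knockdown library b raised the adjusted p to 0.0813 or 0.0651. In MCF10A the direction was the opposite, with 326, 316 and 203 against 494, 445 and 343, all labelled knockdown libraries being higher, but the log2 fold change of 0.61 (SE 0.25) had an adjusted p of 0.238. In MCF10CA1h TFAP2C stayed between 716 and 839 in all 6 libraries, with the labelled knockdown libraries the lower ones (log2 fold change -0.09, SE 0.11, adjusted p = 0.612).

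The TFAP2C effect was the other one that differed between lines. It was lower in MCF10AT1 than in MCF10A by -2.04 (SE 0.31, adjusted p = 0.000152), and higher in MCF10CA1h than in MCF10AT1 by 1.33 (SE 0.31, adjusted p = 0.00598). No library left out in turn removed either call. The 2 differences share the MCF10AT1 libraries.

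**Figure D2:**
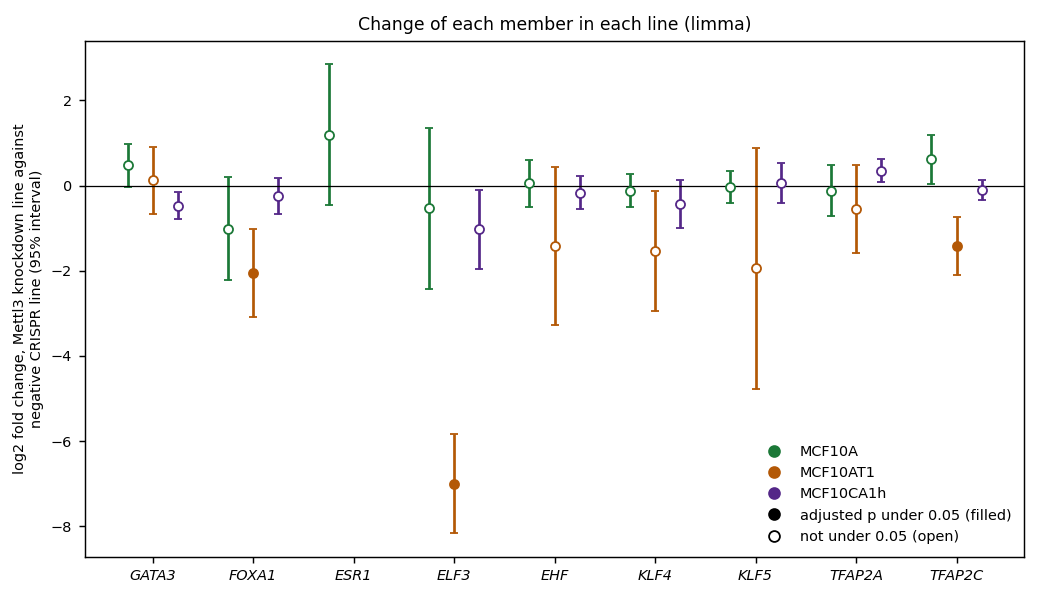
Log2 fold change of each tested member, line labelled Mettl3 knockdown against negative CRISPR line (points, with 95% intervals; filled where the adjusted p is under 0.05). In MCF10AT1 ELF3 lies at -7.00, FOXA1 at -2.06 and TFAP2C at -1.43, and no other point is filled.

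In all, 3 of the 8 members tested in MCF10AT1 passed the threshold, all lower, where 13.0% of the 16050 genes tested in that line did. Their median log2 fold change was -1.48, and that of all genes was 0.02. Of the 9 tested in MCF10A 0 were called by limma, where 2.65% of 15416 genes were. An unadjusted p under 0.05 was found for 1 (TFAP2C) and for 2839 of those genes. Of the 8 tested in MCF10CA1h 0 were called, where 12.8% of 15127 genes were. There 3 (GATA3, TFAP2A and ELF3) had an unadjusted p under 0.05, as did 4230 of those genes. ELF5 passed the filter on low values in none of the lines, and ESR1 passed it in MCF10A alone. The groups did not overlap for 2 members in MCF10A, both higher, for 3 in MCF10AT1, all lower, and for 3 in MCF10CA1h. Over all genes tested 23.9%, 32.8% and 32.7% did not overlap.

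For the difference of the effect between MCF10AT1 and MCF10A, 2 of 8 members passed, where 21.6% of 15897 genes did. Between MCF10CA1h and MCF10AT1 it was again 2 of 8, ELF3 and TFAP2C, where 18.2% did. Without the MCF10AT1 labelled knockdown library c KLF5 and KLF4 were added in both comparisons, which gave 4 of 8 each, and without the MCF10AT1 negative CRISPR library b the second gave 5 of 8, with FOXA1, EHF and TFAP2A added. The share of all genes called was then 25.2% and 21.6% without the former library, and 26.5% in the second comparison without the latter. Between MCF10CA1h and MCF10A 0 of 8 were called by limma, where 5.34% of 15897 genes were. Here 2 (GATA3 and TFAP2C) had an unadjusted p under 0.05, as did 2775 of those genes. GATA3 alone passed there without the MCF10AT1 negative CRISPR library b.

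KLF5, KLF4 and TFAP2A were highest in the MCF10AT1 library of letter c in both arms. KLF5, a factor of proliferating epithelium, held 718, 198 and 4162 normalized counts in the negative CRISPR libraries of MCF10AT1 and 88.2, 103 and 1120 in those labelled knockdown. Each letter was lower in the labelled knockdown line. The log2 fold change of -1.95 had an SE of 1.23 and an adjusted p of 0.353 without the letter, and an adjusted p of 0.00284 with the letter as a block.

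KLF4, which promotes epithelial differentiation, behaved alike in this respect. It held 1156, 778 and 1617 normalized counts against 162, 376 and 974, with overlapping groups and all 3 letters lower. Its log2 fold change of -1.54 (SE 0.61) had an adjusted p of 0.146, and of 0.0111 with the letter as a block. Without the labelled knockdown library c alone the adjusted p was 0.0277. TFAP2A held 823, 547 and 1561 against 557, 434 and 914, again highest in c, and its log2 fold change of -0.56 (SE 0.45) passed neither way (adjusted p = 0.469, and 0.15 with the block). With the block, 5 of the 8 members tested in MCF10AT1 were called, and in the difference between MCF10AT1 and MCF10A 4 of 8, with KLF5 (adjusted p = 0.00973) and KLF4 (adjusted p = 0.0314) added. Over all genes the block raised the share called to 24.5% and 28.9%. The block takes same-letter libraries as pairs, which was not shown for letters a and b of MCF10AT1.

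EHF did not move with the letter. In MCF10AT1 it held 934, 224 and 1330 normalized counts against 660.3, 213 and 103, so library c was the highest of one arm and the lowest of the other (log2 fold change -1.42, SE 0.81, adjusted p = 0.303). Without both libraries of letter c, an alternative chosen after seeing the data, its log2 fold change was -0.28. In MCF10A it held 1114, 1142 and 926 against 1574, 826 and 1011, and in MCF10CA1h 1782, 1413 and 1398 against 1518, 1028 and 1604, overlapping in both.

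**Figure D3:**
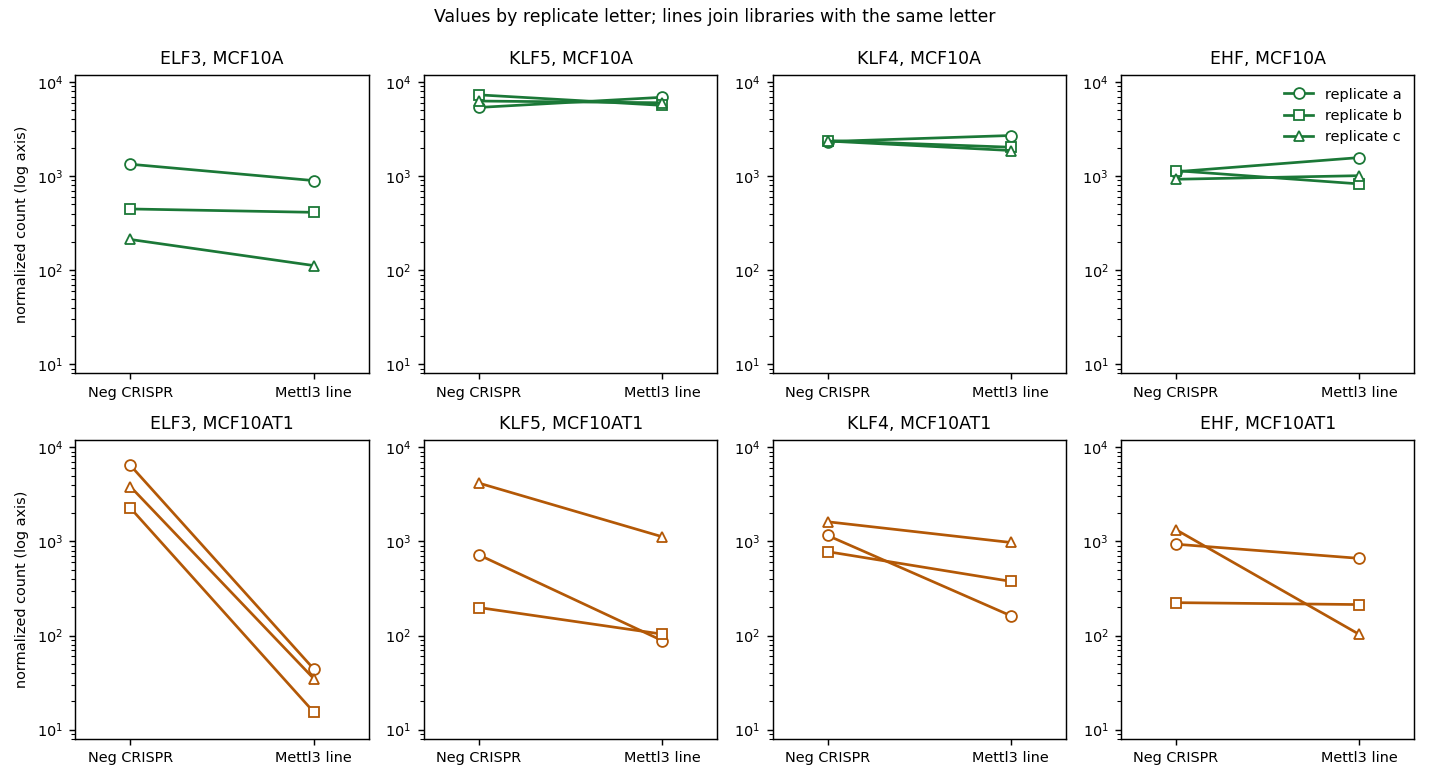
Normalized counts (log axis) of ELF3, KLF5, KLF4 and EHF in MCF10A (top) and MCF10AT1 (bottom), with lines joining the negative CRISPR and labelled knockdown libraries of the same letter. In MCF10AT1 the 3 ELF3 lines run almost in parallel, from 2260 to 6412 down to 15.4 to 44.1, KLF5 and KLF4 are highest in letter c in both arms, and the EHF lines cross.

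In MCF10A these factors were called in neither direction. KLF5 held 5366, 7298 and 6276 normalized counts against 6879, 5645 and 6015, KLF4 2331, 2382 and 2359 against 2699.9, 2027 and 1870, and TFAP2A 1440, 1906 and 3101 against 1781, 1831 and 2020. All groups overlapped, and the 95% intervals of the log2 fold changes ran from -0.40 to 0.35 for KLF5, from -0.50 to 0.27 for KLF4 and from -0.72 to 0.48 for TFAP2A. In MCF10CA1h KLF5 held 2356, 2729 and 1790 against 3098, 1699 and 2484, and KLF4 1392, 901 and 752 against 1043, 606 and 604, also with overlap. Exons on the other strand, of TFAP2A-AS1 and TFAP2A-AS2, share 5.3% and 11.4% of the TFAP2A exon bases, at no more than 39.3 normalized counts in any library. TFAP2A was the exception, with 837, 1103 and 1008 against 1261, 1252 and 1228, so that every labelled knockdown library was higher. Its log2 fold change of 0.35 (SE 0.12) had an adjusted p of 0.0839.

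GATA3, the luminal master regulator (chr10:8045378-8075198, plus strand, hg38), varied least of the members above the filter, with a mean absolute deviation of 0.346 on the log2 scale over the 18 libraries, beside 1.90 for ELF3. MCF10A held 375, 263 and 247 normalized counts against 442, 388 and 380, every labelled knockdown library being higher (log2 fold change 0.47, SE 0.22, adjusted p = 0.297). In MCF10CA1h the direction was the reverse, with 513, 542 and 582 against 469, 367 and 352, every labelled knockdown library being lower (log2 fold change -0.47, SE 0.14, adjusted p = 0.059). The difference of these effects was -0.94 (SE 0.34, adjusted p = 0.141), so neither the single effects nor their difference passed the threshold. Without the labelled knockdown library a of MCF10CA1h the adjusted p of the effect there was 0.0247, and with libraries scaled to equal sums 0.0389. MCF10AT1 held 592, 323 and 662 against 519, 535 and 589, with overlap (log2 fold change 0.12, SE 0.34, adjusted p = 0.85).

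The negative CRISPR lines were then compared with one another, which asks how the members differ between stages of the model. ELF3 and TFAP2C were higher in MCF10AT1 than in MCF10A, and KLF5, KLF4 and TFAP2A were lower. Those were 5 of 8 members tested, where 28.1% of 15652 genes passed. The log2 fold changes were 2.92 (SE 0.66, adjusted p = 0.0138) for ELF3, 1.67 (SE 0.23, adjusted p = 0.00168) for TFAP2C, -2.90 (SE 0.84, adjusted p = 0.0325) for KLF5, -1.06 (SE 0.30, adjusted p = 0.0298) for KLF4 and -1.20 (SE 0.39, adjusted p = 0.046) for TFAP2A. TFAP2C was the single member called whichever library was left out. It was the only one called without the MCF10A library b, the MCF10A library c or the MCF10AT1 library a. Over all genes 1661, 1703 and 2014 were then called, beside 4391 with every library. Without the MCF10AT1 library b, KLF5 (adjusted p = 0.0584), KLF4 (adjusted p = 0.0696) and TFAP2A (adjusted p = 0.124) were no longer called. GATA3 was then called higher (1.11, adjusted p = 0.0133), and 3113 of all genes were called. With libraries scaled to equal sums ELF3 and TFAP2C were still called higher and KLF5 lower, and KLF4 and TFAP2A were no longer called.

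MCF10CA1h differed from MCF10A in 3 of 8 members, where 37.8% of genes passed. TFAP2C was higher by 1.57 (SE 0.23, adjusted p = 0.00106) and GATA3 by 0.91 (SE 0.30, adjusted p = 0.0368), and KLF4 was lower, at -1.26 (SE 0.30, adjusted p = 0.0099), all on the log2 scale. The GATA3 call was lost without any 1 of the MCF10A libraries b and c or the MCF10CA1h libraries a, b and c, with adjusted p up to 0.117. Leaving out a library also added calls, up to 6 of 8 without the MCF10AT1 negative CRISPR library b, which shares this fit, and 5 of 8 without the MCF10A library a or the MCF10AT1 library c, where 48.2%, 36.5% and 48.8% of all genes were called. Between MCF10CA1h and MCF10AT1 0 of 8 were called by limma, where 21.8% of 15652 genes were. Here 1 (EHF) had an unadjusted p under 0.05, as did 5672 of those genes. Without the MCF10AT1 library c, KLF5 (log2 fold change 2.58, adjusted p = 0.00297) and EHF (1.73, adjusted p = 0.0207) passed there, where 35.8% of genes did. These 3 comparisons share their control libraries.

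In the order of the group means, ELF3 was highest in the MCF10AT1 negative CRISPR line and lowest in the MCF10AT1 line labelled knockdown, and only the last group, under the MCF10A line labelled knockdown, was separated from its neighbour by range. KLF5, KLF4 and TFAP2A each had the 2 MCF10A groups on top, separated by range from the third group. For TFAP2A the third group, MCF10CA1h labelled knockdown at 1247 ± 17.1 (SD, n = 3), was also separated from the fourth. The TFAP2A range of the fifth group, MCF10AT1 negative CRISPR at 547 to 1561, spanned the third group. It also overlapped the MCF10A negative CRISPR line, whose lowest value was 1440. TFAP2C fell into a high set of MCF10AT1 negative CRISPR and both MCF10CA1h groups and a low set of the other three. The MCF10CA1h line labelled knockdown, with values up to 803, was separated from both its neighbours. It was not separated from the MCF10AT1 negative CRISPR line, whose lowest value was 770. For GATA3, FOXA1, EHF, ESR1 and ELF5 no neighbours in the order were separated.

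Between genes, group means were compared per kilobase of the canonical GENCODE transcript, and their order did not hold in every library. In the MCF10A negative CRISPR line KLF5 led with 1885 normalized counts per kilobase, followed by KLF4 with 803 and TFAP2A with 684. ELF3 followed with 214 and EHF with 196, and then TFAP2C with 98.4, GATA3 with 95.7 and FOXA1 with 67.8. ESR1, with 1.95, came last among the members not absent there. In the MCF10AT1 negative CRISPR line the ELF3 mean led with 1341 per kilobase, ahead of KLF5 with 505. In library c, however, KLF5 held 4162 normalized counts and ELF3 3811. In the MCF10AT1 line labelled knockdown ELF3 was at 10.1 and FOXA1 at 16.5, under the other members apart from the absent ESR1 and ELF5. The TFAP2A mean led there with 202.0. GATA3 held more normalized counts than TFAP2A in library b (535 against 434), and KLF5 did in library c (1120 against 914). In the MCF10CA1h negative CRISPR line the KLF5 mean led again, with 684, ahead of ELF3 with 560.4. There KLF5 held more normalized counts than ELF3 in library b (2729 against 838). ELF3, the shorter transcript, held more in libraries a (2580 against 2356) and c (1800 against 1790).

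Other factors of epithelial identity also changed in MCF10AT1. Of a list of 10 such genes 8 were tested, and 6 fell and 1 rose in the line labelled knockdown, with a median log2 fold change of -4.94 beside 0.02 for all genes. OVOL2, a repressor that holds cells epithelial, held 562, 736 and 377 normalized counts against 0, 3.49 and 1.45 (adjusted p = 0.000202). Its paralog OVOL1 held 96.5, 80.8 and 211 against 0.98, 0.84 and 0 (adjusted p = 0.000657). GRHL2, which activates cell junction genes, held 587, 383 and 963 against 0.92, 32.6 and 0.98 (adjusted p = 0.00396). Library b labelled knockdown was thus the single one above 10 for GRHL2. The gene that rose, named after its value was seen, was GRHL3, from 34.0, 36.0 and 158 to 542, 674 and 1900 (adjusted p = 0.00781).

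GRHL2 and OVOL1 were near 0 in MCF10CA1h as well, in both arms, with at most 2.37 and 2.67 normalized counts in any of the 6 libraries. ELF3 at 427 to 2580 and FOXA1 at 191 to 319 were present in those same libraries. OVOL2 was present there too, at 208 to 301. Of the list, 0 of 8 genes tested in MCF10A were called by limma. An unadjusted p under 0.05 was found for 3 of them and for 2839 of all 15416 genes tested. In MCF10CA1h 1 of 7 fell, ZNF750, a factor of epidermal differentiation (-2.59, SE 0.51, adjusted p = 0.00925).

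**Figure D4:**
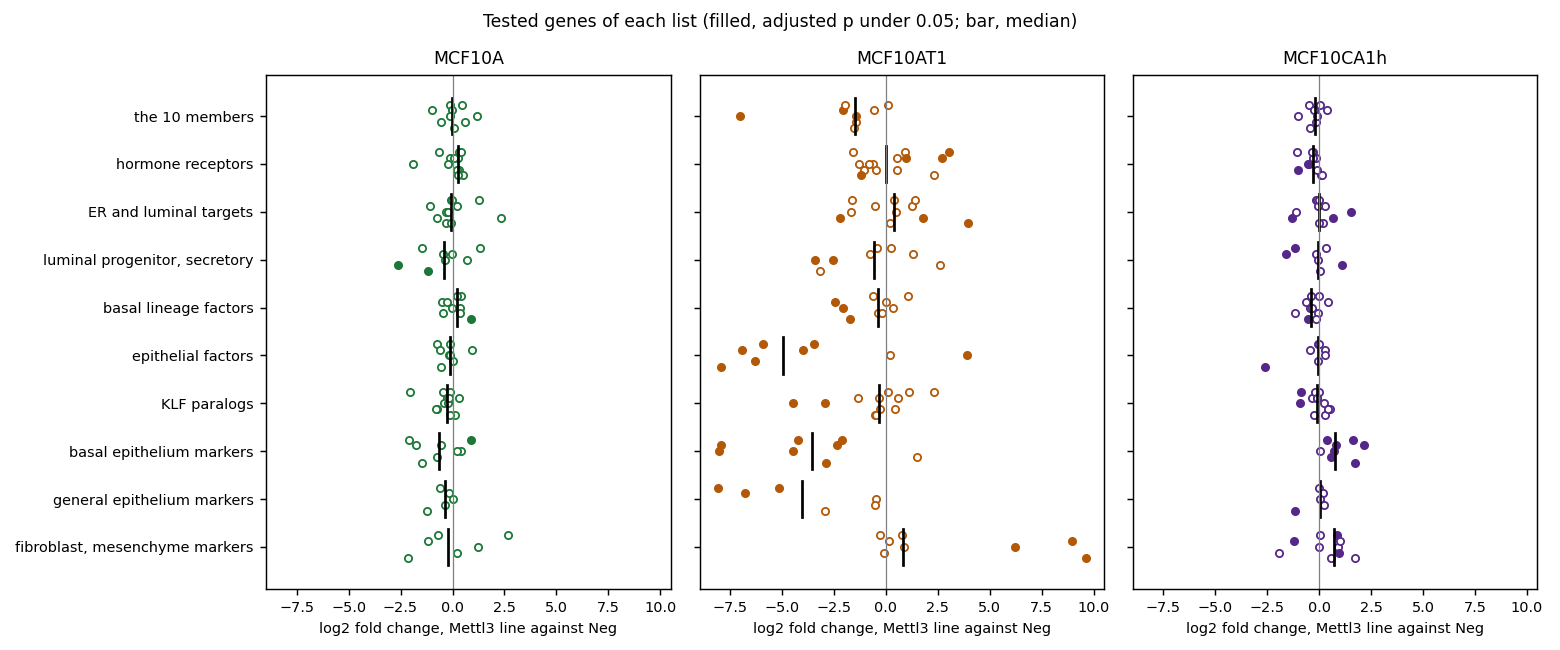
Log2 fold change (x axis) of every tested gene of the 10 members, 6 related lists and 3 marker lists in each line, line labelled Mettl3 knockdown against negative CRISPR line; filled points have an adjusted p under 0.05 and black bars are medians. In MCF10AT1 the epithelial factors have a median of -4.94 and the general epithelium markers one of -4.05, against -1.48 for the members.

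Cell type markers changed in MCF10AT1 as well. Of 8 basal epithelium markers 7 fell, and 3 of the 6 general epithelium markers did. The summed basal markers overlapped, at 105452 to 162556 in the negative CRISPR libraries and 56138 to 173048 in those labelled knockdown. CDH1, which encodes E-cadherin, held 3475, 2105 and 6138 normalized counts against 11.6, 31.7 and 79.2, and EPCAM 4291, 3494 and 3572 against 78.8, 115 and 126. The summed general epithelium markers ranged from 54871 to 87295 in the negative CRISPR libraries and from 23459 to 48094 in those labelled knockdown, and KRT8 and KRT18 did not pass the test. Of 13 fibroblast or mesenchyme markers 8 were tested and 3 rose, among them THY1 from at most 1.91 to between 1200 and 2557 and COL3A1 from at most 2.25 to between 385 and 1208. Their sum ranged from 754 to 1087 and from 4013 to 5286. COL1A2, LUM, PRRX1 and POSTN did not reach 10 in any MCF10AT1 library. The part of these marker changes in the values of ELF3, FOXA1 and TFAP2C was not tested.

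Markers moved differently in MCF10CA1h, where 0 of 8 members were called by limma. There 7 of 8 basal epithelium markers rose, KRT14 by 2.15 (SE 0.17, adjusted p = 7.02e-05) and LAMA3 by 1.71 (SE 0.13, adjusted p = 5.3e-05) on the log2 scale. The summed basal markers ranged from 317378 to 322327 in the negative CRISPR libraries and from 449787 to 517102 in those labelled knockdown. Of the general epithelium markers CLDN4 fell there, at -1.16, and of 10 fibroblast or mesenchyme markers tested DCN and FAP rose and COL3A1 fell. Of the 4 endothelium markers VWF and CDH5 did not reach 10 in any of the 18 libraries, while PECAM1 fell in MCF10CA1h from 92.7, 76.7 and 123 to 26.3, 43.8 and 60.1 (-1.20, SE 0.33, adjusted p = 0.0389). The summed endothelium markers ranged up to 863, in a MCF10AT1 negative CRISPR library. In MCF10A 1 of 8 basal markers was called, KRT5, which rose by 0.90 (SE 0.18, adjusted p = 0.0455). The median of the 8 was lower, at -0.63, and 6 had an unadjusted p under 0.05. Their sum ranged from 407118 to 760458 in the negative CRISPR libraries and from 383829 to 437482 in those labelled knockdown.

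Of all genes tested, 2.65% were called for MCF10A, 13.0% for MCF10AT1 and 12.8% for MCF10CA1h, and the counts of the lists that follow stand beside those shares. Among 16 other hormone receptor genes PGR, a classical target of the estrogen receptor, was absent from all groups, at 0 in MCF10A and MCF10AT1 and at most 4.82 in MCF10CA1h. Of 14 receptors tested in MCF10AT1 3 rose and 1 fell, the one that fell being the retinoic acid receptor gene RARG (-1.19, SE 0.24, adjusted p = 0.0136). RXRB, a shared partner of nuclear receptors, was among those that rose (0.98, SE 0.26, adjusted p = 0.0436). In MCF10CA1h 2 of 11 fell, the thyroid hormone receptor gene THRA (-1.02, SE 0.16, adjusted p = 0.00278) and RXRA (-0.55, SE 0.09, adjusted p = 0.00347). The glucocorticoid receptor gene NR3C1, whose ligand was in the medium, held 464 to 2996 normalized counts over the 18 libraries, and its difference between the arms was called in none of the 3 lines.

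Of 17 genes known as targets of the estrogen receptor or markers of luminal cells, 11 were tested in each line. TFF1, a textbook estrogen target, did not exceed 2.83 in any library. In MCF10AT1 CA12 rose by 3.95 (SE 0.53, adjusted p = 0.00195) and MLPH by 1.80 (SE 0.40, adjusted p = 0.0214), and MYB fell, at -2.22 (SE 0.56, adjusted p = 0.0366). The list thus moved in both directions while FOXA1 fell, and ESR1 was absent. In MCF10CA1h AGR2 rose by 1.53 (SE 0.33, adjusted p = 0.0135) and MLPH by 0.66 (SE 0.16, adjusted p = 0.0242), and MYB fell, at -1.29 (SE 0.25, adjusted p = 0.00925).

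Genes of luminal progenitors and secretory cells gave a mixed picture. In MCF10A 2 of 8 tested fell, LCN2 (-2.63, SE 0.49, adjusted p = 0.0356) and the protease inhibitor gene SLPI (-1.18, SE 0.17, adjusted p = 0.0154). In MCF10AT1 2 of 8 fell, WFDC2 (-3.43, SE 0.42, adjusted p = 0.0013) and ALDH1A3 (-2.52, SE 0.39, adjusted p = 0.00422), the latter an enzyme gene that marks luminal progenitors. In MCF10CA1h WFDC2 (-1.58, SE 0.19, adjusted p = 0.000766) and CD14 fell and LCN2 rose (1.10, SE 0.23, adjusted p = 0.013), 3 of 7 tested.

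Of 13 basal lineage factors 9 were tested in MCF10AT1, and 3 fell. SNAI2, a factor known to repress CDH1 through E-boxes, held 469, 339 and 865 normalized counts against 55.2, 74.5 and 204 (log2 fold change -2.44, SE 0.56, adjusted p = 0.0249). SOX9 (-2.08, SE 0.42, adjusted p = 0.014) and NFIB (-1.71, SE 0.35, adjusted p = 0.0151) were the others. NFIB passed in every line, up in MCF10A (0.91, SE 0.18, adjusted p = 0.0388) and down in MCF10CA1h (-0.55, SE 0.13, adjusted p = 0.0181).

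Of 12 other Krüppel-like factors, all tested in each line, KLF6 (-4.45, SE 0.64, adjusted p = 0.0029) and KLF11 (-2.95, SE 0.77, adjusted p = 0.0397) fell in MCF10AT1, and KLF11 (-0.94, SE 0.22, adjusted p = 0.0197) and KLF9 (-0.90, SE 0.18, adjusted p = 0.00973) in MCF10CA1h, which is near the 13.0% and 12.8% of all genes called there. Of the ETS relatives ELF1, ELF2, ELF4 and SPDEF 3 were tested in MCF10AT1, with 0 called by limma and a median log2 fold change of -0.48. GATA6 was the single other GATA or FOXA gene above the filter, and it was called in none of the 3 lines. TFAP2E, the AP-2 paralog in the table, did not exceed 18.6 in any library.

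For each member with a mean of at least 50, the genes with the most similar profile over the 18 libraries were found by the mean absolute difference of centred log2 values. TKT was the nearest to GATA3 (0.138), PLEKHA7 to FOXA1 (0.286), NAT1 to EHF (0.386), PLEKHA3 to KLF4 (0.272), MEX3C to KLF5 (0.435), MAP2K4 to TFAP2A (0.142) and TGIF2 to TFAP2C (0.206), among 15897 genes. JUN was the third for FOXA1 (0.408) and the desmosome gene DSP the second for KLF5 (0.454). The nearest to ELF3 was ENSG00000249007 (0.729), a transcript whose exons share 664 bases with ELF3 on the same strand, so reads could be split between them, and the next was ZNF287 (0.792). Among the members themselves KLF4 and TFAP2A (0.51) and GATA3 and TFAP2C (0.517) were the closest pairs. All 18 libraries enter these values, so differences between lines, arms and letters are shared by the points.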

How the data were processed

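RNA-seq of 18 libraries, 3 in each of 6 groups named by the labels, was analysed. Per the labels and the study's methods, the authors quantified reads with kallisto 0.46.1 on hg38, imported them with tximport and normalized them with DESeq2 1.26.0 in R 4.1.1; the annotation release and strand setting are not given in the sources used here. The labels name both polyA RNA and a total RNA kit, which was not settled. The deposited values are a signal, that is, counts divided by size factors by the authors. Of the low values above 0 in each library, between 23.8% and 45.7% were whole multiples of a unit (tolerance 0.05). No counts were therefore recovered and no count model was run, and the precision behind single values is unknown. Another 24646 rows held no values.

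Values were tested as log2(value + 1), which understates changes of low genes, with limma 3.58.1 (moderated test with intensity trend, two-sided, R 4.3.3). Genes whose mean in a fit was under 10 were left out, and p-values were adjusted by Benjamini-Hochberg over all genes kept, at a threshold of 0.05. Each line was fitted alone (6 libraries), differences of effects in all 18 and negative CRISPR lines in 9. The fit was tested on simulated data. In MCF10A deviations of same-letter libraries correlated at 0.116 to 0.221 across genes, above every pair of unlike letters. In MCF10AT1 they correlated at 0.11 to 0.477. There negative CRISPR b against labelled knockdown a gave 0.251, above a against a at 0.11, so letters a and b were not shown to pair. In MCF10CA1h the letters did not pair the libraries (-0.011 to 0.046). The alternatives were other pseudocounts, filters and scalings, no trend, a joint fit, the letter as a block and each library left out.

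The members and lists were chosen with earlier results of these data known. At most 3 genes per list and line were named, those with the largest absolute log2 fold change among called genes with a mean of at least 50; PGR, TFF1, NR3C1, GATA6, TFAP2E and GRHL3 were named after their values were seen. One gene that the rule would name is not reported here. Gene positions and exons came from GENCODE and the sequences before start sites from RefSeq (GRCh38.p14), where 9 of 10 members had an entry. Python 3.11.15, pandas 2.3.3, NumPy 2.4.6, SciPy 1.17.1 and matplotlib 3.10.9 were used.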

Additional observations from a re-analysis of the deposited data

Results flagged for a closer look

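The difference of the effect of the line labelled Mettl3 knockdown between lines passed the test for 2 members, each in 2 comparisons that share the MCF10AT1 libraries. For ELF3 the effect in MCF10AT1 minus that in MCF10A was -6.46 on the log2 scale, and that in MCF10CA1h minus that in MCF10AT1 was 5.97. For TFAP2C the same differences were -2.04 and 1.33. The labelled knockdown libraries of MCF10AT1 were also lower in CDH1 and EPCAM and higher in THY1, and the part of these changes in the differences was not tested.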

How the results depend on the processing

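Under the alternatives, 1318 member results kept their direction and their side of the threshold, 42 passed it newly, 40 lost it and 29 turned direction. Without both MCF10AT1 libraries of letter c, an alternative chosen after seeing the data, these numbers were 44, 9, 1 and 2. With the letter as a block, the members called went from 3 to 5 in MCF10AT1, from 0 to 2 in MCF10CA1h (ELF3, adjusted p = 0.000752, and KLF4, adjusted p = 0.0491, where the letters do not pair the libraries), from 2 to 4 for MCF10AT1 minus MCF10A, from 2 to 5 for MCF10CA1h minus MCF10AT1 and from 3 to 5 for the negative CRISPR lines MCF10CA1h against MCF10A. Over all genes the block called 24.5%, 12.4%, 28.9%, 24.8% and 34.6% in the same order, beside 13.0%, 12.8%, 21.6%, 18.2% and 37.8% without it. The block changed no other count of members called by over 1.5 times. With libraries scaled to equal sums, 1 was called in MCF10CA1h and 3 for the negative CRISPR lines MCF10AT1 against MCF10A. There 13.7% and 23.6% of all genes were called, and the median of all genes shifted by between -0.16 and 0.11 over the comparisons. Without letter c, 4 members were called in each difference that uses MCF10AT1, 5 for MCF10CA1h against MCF10A and 2 for MCF10CA1h against MCF10AT1. Over all genes 3990 were then called for MCF10AT1 minus MCF10A and 3476 for MCF10CA1h minus MCF10AT1. Between the negative CRISPR lines 7623 were called for MCF10CA1h against MCF10A and 5593 for MCF10CA1h against MCF10AT1.

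With 1 library left out, the members called ranged from 1 to 4 in MCF10AT1, 0 to 1 in MCF10CA1h, 2 to 4 for MCF10AT1 minus MCF10A, 0 to 1 for MCF10CA1h minus MCF10A and 2 to 5 for MCF10CA1h minus MCF10AT1. Between the negative CRISPR lines they ranged from 1 to 5 for MCF10AT1 against MCF10A, 2 to 6 for MCF10CA1h against MCF10A and 0 to 2 for MCF10CA1h against MCF10AT1. The calls over all genes also moved with the library left out, and their ranges are given in the last paragraph.

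Direction turned only in member results that had not passed the test. Under equal sums these were KLF5 in MCF10A (0.0638), GATA3 in MCF10AT1 (-0.0406), KLF5 for MCF10CA1h minus MCF10A (-0.0602), FOXA1 for the negative CRISPR lines MCF10AT1 against MCF10A (-0.0391) and TFAP2C for MCF10CA1h against MCF10AT1 (0.0139). Without letter c they were FOXA1 (-0.103) and KLF4 (0.0476) in those same 2 comparisons. With 1 library left out, the log2 fold change ranged in MCF10A from -1.22 to 0.27 for ELF3, -0.21 to 0.26 for EHF, -0.14 to 0.0856 for KLF5 and -0.38 to 0.18 for TFAP2A. It ranged from -0.20 to 0.32 for GATA3 in MCF10AT1, and in MCF10CA1h from -0.28 to 0.037 for EHF and -0.14 to 0.30 for KLF5. For MCF10CA1h minus MCF10A it ranged from -1.30 to 0.19 for ELF3, -0.42 to 0.0444 for EHF and -0.11 to 0.32 for KLF5. Between the negative CRISPR lines it ranged from -0.35 to 0.40 for FOXA1 and -1.21 to 0.0783 for EHF (MCF10AT1 against MCF10A), from -0.0084 to 0.74 for FOXA1 (MCF10CA1h against MCF10A), and from -0.20 to 0.32 for GATA3, -0.48 to 0.0476 for KLF4 and -0.22 to 0.54 for TFAP2A (MCF10CA1h against MCF10AT1).

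Over all genes, 409 calls in MCF10A became 1172 with the block and 237 without the trend, 2091 in MCF10AT1 became 3939 with the block and 5146 in the joint fit, 1929 in MCF10CA1h became 1123 without the trend and 248 in the joint fit, and 849 for MCF10CA1h minus MCF10A became 1283 with the block. With 1 library left out, the calls ranged from 52 (without the labelled knockdown library c) to 1418 (without the negative CRISPR library a) in MCF10A, 1020 to 2439 in MCF10AT1 and 1089 to 1785 in MCF10CA1h. They ranged from 2791 to 5077, 470 to 1220 and 2139 to 4206 for the differences MCF10AT1 minus MCF10A, MCF10CA1h minus MCF10A and MCF10CA1h minus MCF10AT1, and from 1661 to 8142, 3675 to 7623 and 1608 to 5593 between the negative CRISPR lines in the same order. The cause was not tested. Each group came from 1 cloned line, so differences between clones and the guide's target cannot be told apart.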
